A study of Arabidopsis thaliana with 6 samples.

Results

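The 10 genes described here encode the enzymes and the transporter of methionine chain elongation, the part of glucosinolate synthesis that lengthens methionine before it enters the core pathway. They were chosen by their annotated role in the pathway, with the values of the same comparison, *bee1 bee3 stk ces-4* quadruple mutant against wild type, already known. Their differences between the genotypes are therefore given as a description, and no test was made over the 10 genes. All 10 were present among the 21799 genes with values in the deposited table. RNA was taken from inflorescences up to stage 12 of pistil development, in 3 samples of the quadruple mutant and 3 samples of wild-type Col-0, each a pool of plants. The mutant carries alleles of *SEEDSTICK* (*STK*), a MADS-domain transcription factor gene, and of *CESTA* (*CES*), *BEE1* and *BEE3*, which encode related bHLH transcription factors. Both genotypes share the Col-0 background and the same growth at long days. The comparison was made to find genes that these 4 factors act on, directly or indirectly, during transmitting tract development. Whole inflorescences hold many tissues besides the transmitting tract. A change in the number of cells of a type and a change in RNA per cell therefore cannot be told apart in these values.

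Aliphatic glucosinolates are sulfur- and nitrogen-containing defence compounds of Brassicaceae that are built from chain-elongated methionine. BCAT4 removes the amino group of methionine in the cytosol, and BAT5 carries the resulting 2-oxo acid into the chloroplast. There, methylthioalkylmalate synthase (MAM) joins it to acetyl-CoA, isopropylmalate isomerase (IPMI) shifts the hydroxyl group, and isopropylmalate dehydrogenase (IMD) oxidises the product, which leaves an acid longer by a methylene group. The acid may pass through the cycle again, or be transaminated by BCAT3 to an elongated methionine. The cycle is derived from leucine synthesis, in which isopropylmalate synthase (IPMS) takes the place of MAM, and some proteins serve both pathways. The large subunit of IPMI is shared between them, whereas different small subunits direct the enzyme to either substrate.

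The members and their leucine pathway relatives were compared first by sequence, since near-identical copies share reads. In the TAIR10.1 annotation, *MAM1* (*AT5G23010*, chr5:7703041-7706973) and *MAM3* (*AT5G23020*, chr5:7718118-7721866, named IMS2 in RefSeq) lie next to each other on the same strand, 11144 bases apart. Their coding sequences were identical at 83.8% of the aligned bases, and no stretch of 50 bases was shared. *IPMI2* (*AT2G43100*, chr2:17920647-17921844) stands directly behind *AT2G43090*, the small subunit gene of leucine synthesis, again on the same strand. The coding sequences of this pair were identical at 73.8% of the aligned bases. The 150 bases between the annotated end of *AT2G43090* and the start of *IPMI2* (chr2:17920497-17920646, plus strand, intergenic) are shown because the values of these close neighbours are set side by side further on.

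IPMI2 upstream: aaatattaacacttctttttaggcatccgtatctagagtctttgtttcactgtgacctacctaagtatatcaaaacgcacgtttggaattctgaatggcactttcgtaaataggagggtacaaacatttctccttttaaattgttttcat

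*IMD1* (*AT5G14200*, chr5:4576123-4578402) and *IMD3* (*AT1G31180*, chr1:11142461-11144717) were the closest pair, with 95.0% identity over 1215 aligned coding bases. Of the 1181 windows of 50 bases in the *IMD1* coding sequence, 103 (8.72%) occurred unchanged in *IMD3*, and the longest shared run was 95 bases. Reads that fall in such runs are divided between the genes by the estimation program of the authors. The low values of *IMD1* are less certain for it, to an extent that was not estimated. The aligned stretch of 60 bases with the most differences is shown to give an idea of what separates the 2 genes. It covers positions 214 to 273 of the *IMD1* coding sequence (exons 1 and 2, chr5:4576433-4576579, plus strand, with the intron left out) and positions 250 to 309 of *IMD3* (exon 1, chr1:11144354-11144413, minus strand). Capitals mark the 7 bases that differ.

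IMD1: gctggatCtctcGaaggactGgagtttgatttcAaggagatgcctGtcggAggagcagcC

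IMD3: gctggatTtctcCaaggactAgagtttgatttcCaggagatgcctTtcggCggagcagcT

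The longest run that any other listed pair with a member shared was 37 bases, between *BCAT3* and *BCAT5*. *BCAT4* (*AT3G19710*, chr3:6846969-6849582) had 63.0% coding identity with *BCAT3* (*AT3G49680*, chr3:18422542-18425758), and *IPMI1* (*AT3G58990*, chr3:21797058-21798303) had 72.0% with *IPMI2*. *BAT5* (*AT4G12030*, chr4:7210807-7213376) and the IPMI large subunit gene (*AT4G13430*, chr4:7803863-7807984, named IIL1 in RefSeq) had no relative on the lists. *BCAT4* overlaps *IKU2* on the opposite strand by 307 bases, *IMD3* overlaps *AT1G31175* by 256 bases and *IMD1* overlaps *AT5G14210* by 25 bases. The library kit was strand-specific, but whether strand was used in counting is not given in the sources used here.

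Values were deposited as CPM, the read counts of a gene relative to the library size as scaled by the authors. From the spacing of low values, a read was worth 0.0458 to 0.0617 CPM, so that an absent gene may still have up to 0.137 to 0.185 CPM (3 reads), a limit of counting error alone. The labels were checked on the 4 mutated genes, whose mutant means were 0.0354 to 0.252 times the wild-type means, and all 4 were called lower. Floral identity genes were detected in every sample, with summed levels of 747 to 809 CPM in the mutant and 667 to 758 CPM in wild type over 6 genes. On the principal component that separated the genotypes, mutant replicate 2 at -30.9 and wild-type replicate 2 at 38.6 lay at the opposite ends. Differences were tested with limma on log2(CPM + 0.5) for 21287 genes that exceeded 0.5 CPM in 3 or more samples. Calls were made at a p-value below 0.05 after Benjamini-Hochberg adjustment over these genes. All log2 fold changes below refer to CPM + 0.5, so for genes at low values they are smaller than the ratio of the means.

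All 10 members passed the filter, and each of them was over 0.5 CPM in all 6 samples. *BAT5*, *IPMI1* and *IMD1* were called, all higher in the quadruple mutant, and 0 members were called lower. Over all tested genes, 0.695% were called in either direction and 0.132% were called higher. In 7 of the 10 members every mutant sample lay above every wild-type sample, an arrangement found for 6.92% of all tested genes. Since this contrast was known when the members were listed, nothing is read from these shares. The median log2 fold change was 1.04 over the 10 members and 0.01 over all tested genes. The members fell apart by size of the difference. *BCAT4*, *BAT5*, *MAM1*, *IPMI2*, *IPMI1* and *IMD1* had log2 fold changes of 1.02 to 1.25. The ratios of their mean CPM, without the added 0.5, were 2.26 to 3.61. *MAM3*, the IPMI large subunit gene, *IMD3* and *BCAT3* had log2 fold changes of 0.04 to 0.30.

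**Figure D1:**
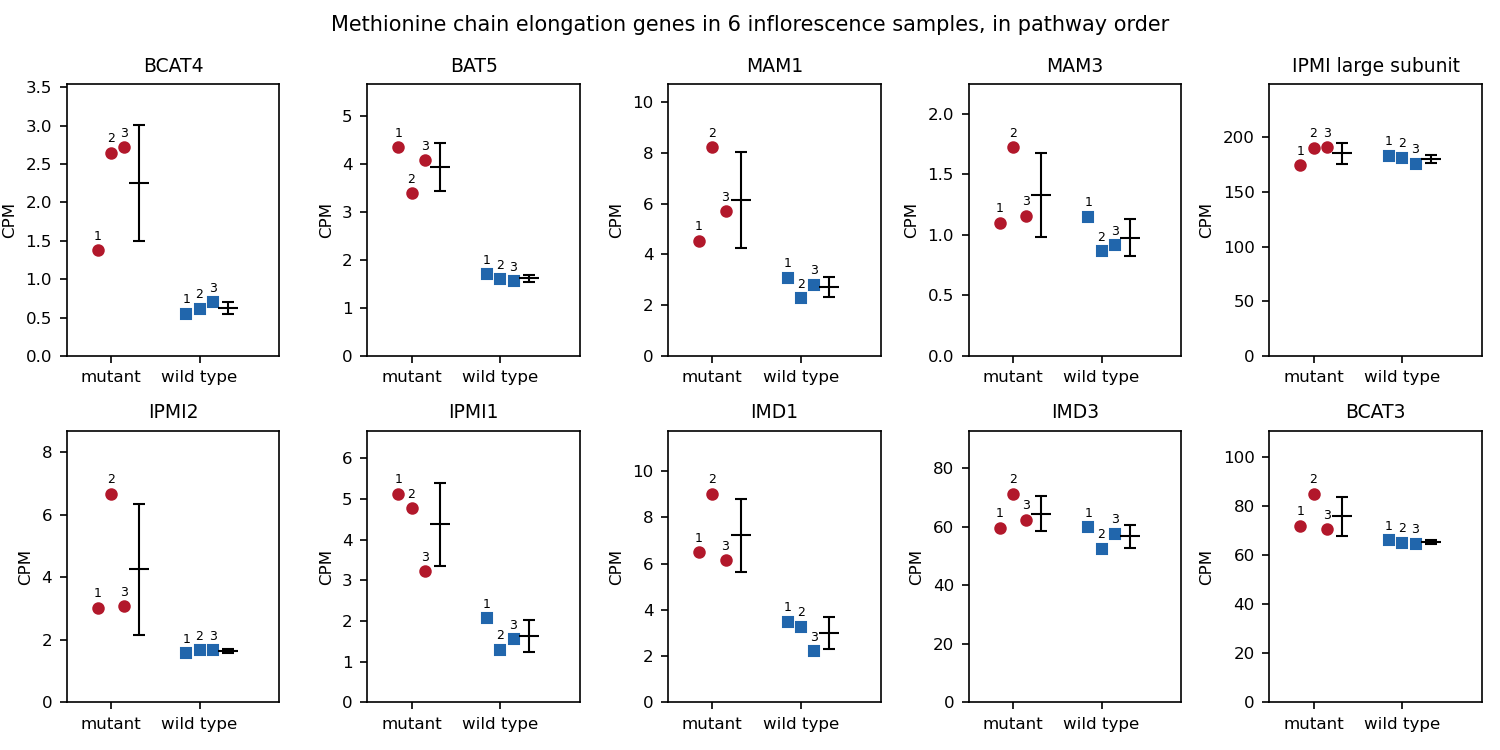
CPM of the 10 members in pathway order, with a linear axis from 0 in each panel; circles are quadruple mutant samples, squares are wild-type samples, small numbers give the replicate, and black bars give the mean ± SD (n = 3). Mutant and wild-type samples stand apart for *BCAT4*, *BAT5*, *MAM1*, *IPMI2*, *IPMI1*, *IMD1* and, by a small margin, *BCAT3*, and overlap for *MAM3*, the IPMI large subunit gene and *IMD3*.

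The entry into the pathway was followed first. *BCAT4*, the methionine aminotransferase, had 1.38, 2.65 and 2.72 CPM in mutant replicates 1, 2 and 3, against 0.552, 0.617 and 0.700 CPM in the wild-type replicates. Every mutant sample was above every wild-type sample, and mutant replicate 1 was the lowest of its genotype at about 30 reads, while wild-type samples had 10 to 13 reads. The means were 2.25 ± 0.756 CPM in the mutant and 0.623 ± 0.0740 CPM in wild type (SD, n = 3 each), and the log2 fold change of 1.25 (SE 0.24) was not called by limma. *BAT5*, the 2-oxo acid transporter of the chloroplast envelope, had 4.35, 3.39 and 4.08 CPM in the mutant, against 1.70, 1.60 and 1.56 CPM in wild type. The groups were well apart and the samples of each genotype close together, with coefficients of variation of 12.5% in the mutant and 4.46% in wild type, where 26 to 37 reads alone give a counting error of 18.3%. *BAT5* rose by 1.06 on the log2 scale (SE 0.16), at 2.43 times the wild-type mean.

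The condensing enzymes came next. MAM1 makes mostly the shorter side chains, and MAM3 accepts substrates of all lengths, including the long ones. *MAM1* had 4.54, 8.23 and 5.69 CPM in the mutant, against 3.08, 2.28 and 2.80 CPM in wild type. The groups did not overlap, and mutant replicate 2 was the highest sample by a wide margin. Its log2 fold change of 1.02 (SE 0.21) was not called by limma. *MAM3* had 1.10, 1.73 and 1.16 CPM in the mutant, against 1.15, 0.863 and 0.915 CPM in wild type, which are 14 to 30 reads in any sample. Here mutant replicate 1 lay below wild-type replicate 1, and the log2 fold change was 0.30 (SE 0.21). Of the summed CPM per kb of *MAM1* and *MAM3*, *MAM1* made up 81.3% ± 1.44 in the mutant and 72.6% ± 1.59 in wild type (SD, n = 3 each). The leucine pathway synthases *IPMS1* (*AT1G18500*) and *IPMS2* (*AT1G74040*), which add acetyl-CoA to the 2-oxo acid from which valine is also made, had log2 fold changes of 0.00 (SE 0.10) and 0.12 (SE 0.09).

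For the isomerase, both kinds of subunit were listed. The large subunit gene *AT4G13430*, which serves leucine synthesis as well, had 175, 191 and 191 CPM in the mutant, against 183, 181 and 176 CPM in wild type. The groups overlapped at a difference of 0.04 on the log2 scale (SE 0.08), on about 2941 to 3986 reads per sample. *IPMI2*, a small subunit of chain elongation, had 3.02, 6.67 and 3.07 CPM in the mutant, against 1.56, 1.66 and 1.67 CPM in wild type. Wild-type samples had a coefficient of variation of 3.63%, below the counting error of 18.1% for their 27 to 34 reads, whereas mutant replicate 2 was far above the other mutant samples, and the coefficient of variation in the mutant was 49.2%. The log2 fold change of *IPMI2* was 1.07 (SE 0.27) and was not called. *IPMI1*, the other small subunit of chain elongation, had 5.13, 4.77 and 3.22 CPM in the mutant, against 2.07, 1.29 and 1.56 CPM in wild type. In *IPMI1* mutant replicate 3 was the lowest of its genotype and replicate 2 did not stand out. *IPMI1* rose by 1.18 on the log2 scale (SE 0.21), at 2.67 times the wild-type mean. The small subunit of leucine synthesis, *AT2G43090*, whose end lies just before *IPMI2*, had 116, 125 and 107 CPM in the mutant, against 112, 106 and 96.8 CPM in wild type, a log2 fold change of 0.15 (SE 0.09).

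Among the dehydrogenases, *IMD1*, the copy that acts mainly in chain elongation, had 6.51, 9.03 and 6.14 CPM in the mutant, against 3.50, 3.27 and 2.21 CPM in wild type. All mutant samples were above the wild-type samples, with mutant replicate 2 the highest and wild-type replicate 3 the lowest. *IMD1* rose by 1.15 on the log2 scale (SE 0.20), at 2.42 times the wild-type mean. *IMD3*, which acts mainly in leucine synthesis, had 59.7, 71.3 and 62.4 CPM in the mutant, against 59.9, 52.5 and 57.6 CPM in wild type. The groups overlapped, and the log2 fold change was 0.18 (SE 0.10). *IMD2* (*AT1G80560*), the third copy and also a leucine enzyme, had a log2 fold change of -0.06 (SE 0.09).

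The last transamination was carried at a much higher level. *BCAT3*, the plastid aminotransferase that also acts in branched-chain amino acid synthesis, had 72.1, 85.2 and 70.7 CPM in the mutant, against 66.2, 65.2 and 64.7 CPM in wild type. The mutant samples lay above the wild-type samples by a narrow gap, and the log2 fold change of 0.21 (SE 0.09) was not called. Its relatives *BCAT1* (*AT1G10060*), a mitochondrial enzyme of branched-chain amino acid breakdown, *BCAT2* (*AT1G10070*) and the plastid copy *BCAT5* (*AT5G65780*) had log2 fold changes of 0.17, -0.23 and 0.14 (SE 0.08, 0.17 and 0.11). Of the 7 leucine pathway and aminotransferase relatives, limma called 0 in either direction, 0 had an unadjusted p-value under 0.05, and the adjusted p-values lay between 0.551 and 0.997. Their median log2 fold change was 0.12. In *BCAT1* every mutant sample lay above every wild-type sample, as in 6.92% of all tested genes. In the other relatives the groups overlapped.

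**Figure D2:**
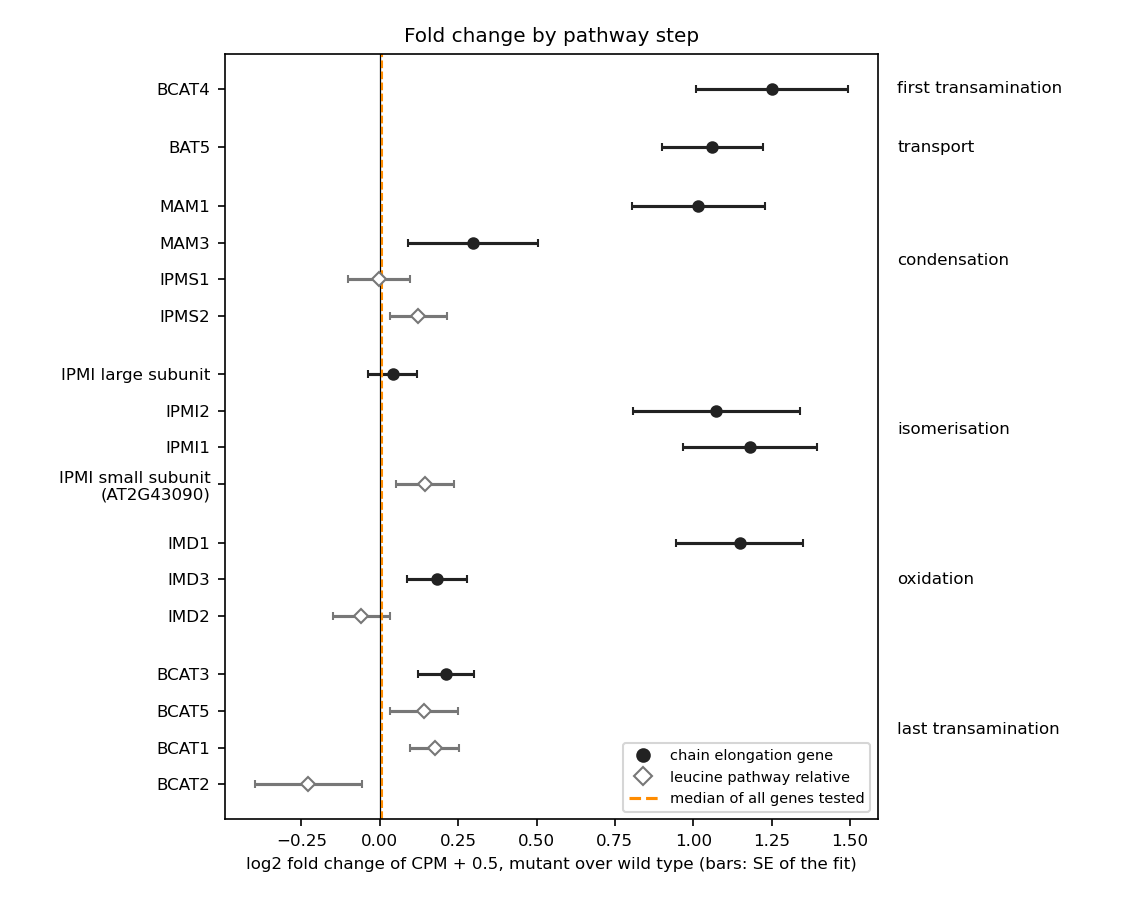
Log2 fold change of CPM + 0.5, quadruple mutant over wild type, for members (filled circles) and leucine pathway relatives (open diamonds), grouped by pathway step; bars are the SE of the limma fit and the dashed line is the median of all tested genes at 0.01. 6 members lie between 1.02 and 1.25, while the other members and all relatives lie between -0.23 and 0.30.

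Levels of different genes were compared per kb of the longest annotated transcript. In wild type the order began with the IPMI large subunit gene at 87.6 ± 1.88 CPM per kb, followed by *BCAT3* at 37.3 ± 0.423 and *IMD3* at 33.4 ± 2.24 CPM per kb (SD, n = 3 each). A wide gap followed, since *IMD1*, at 1.85 ± 0.425 CPM per kb, was the next. *MAM1*, *IPMI2* and *IPMI1* had 1.41, 1.36 and 1.32 CPM per kb, and the ranges over samples of neighbours in this order, from *IMD1* to *IPMI1*, overlapped. *BAT5* at 0.734 ± 0.0328 CPM per kb was separated from its neighbours, and *MAM3* and *BCAT4* closed the order at 0.534 ± 0.0835 and 0.429 ± 0.0510 CPM per kb with overlapping ranges. In the mutant the same 3 genes led, at 90.2, 43.4 and 38.0 CPM per kb for the large subunit gene, *BCAT3* and *IMD3*. *IMD1*, *IPMI2*, *IPMI1* and *MAM1* followed at 4.47, 3.55, 3.51 and 3.20 CPM per kb, *BAT5* at 1.78 and *BCAT4* at 1.55 CPM per kb, and within each of these 2 stretches neighbours overlapped. *MAM3* was the lowest member of the mutant at 0.726 ± 0.189 CPM per kb, and its range did not meet that of *BCAT4*. The members thus covered a wide range of level, from percentile 3.92 of wild-type CPM among all genes for *BCAT4* to percentile 96.2 for the large subunit gene. The 3 members of highest level were also among the 4 with the smallest differences between genotypes.

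**Figure D3:**
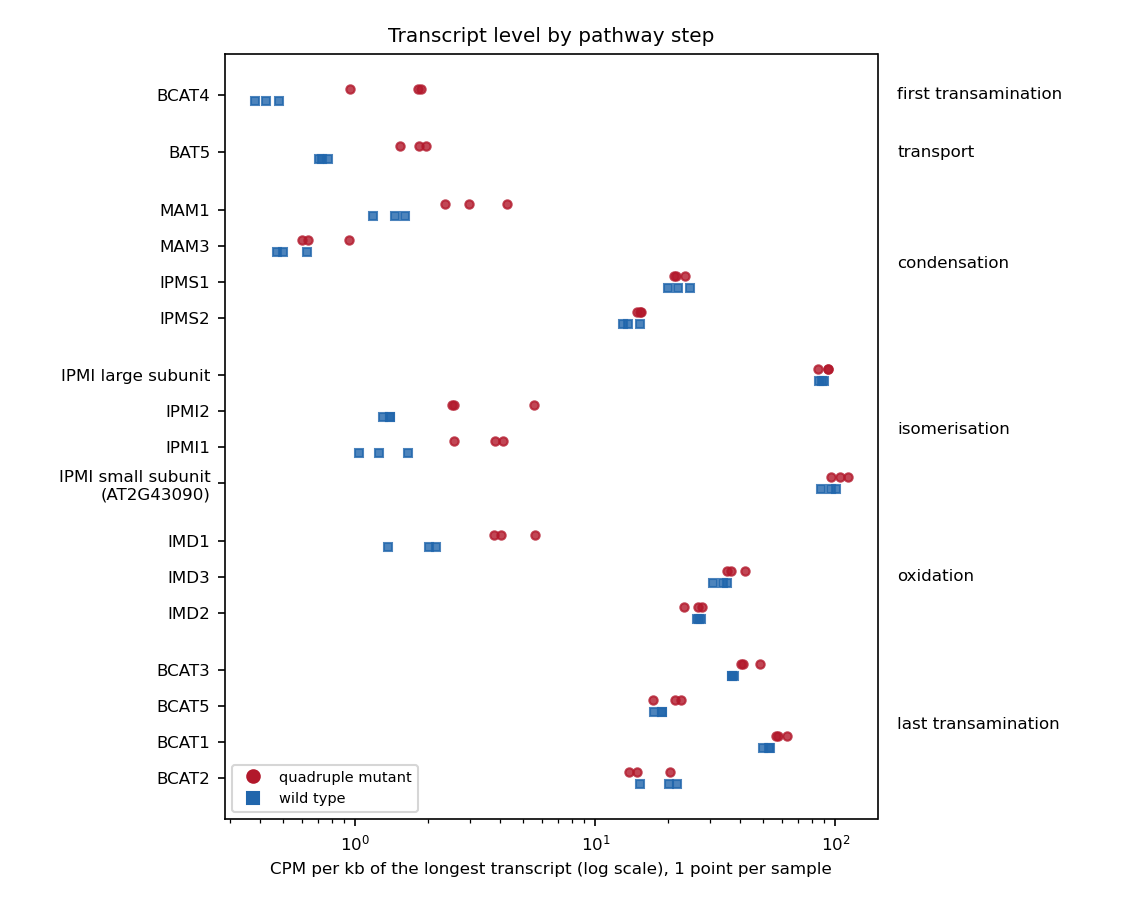
CPM per kb of the longest transcript on a log scale, with a point for each sample of the quadruple mutant (circles) and of wild type (squares), for members and leucine pathway relatives by pathway step. The genes of chain elongation proper lie between 0.429 and 4.47 CPM per kb on average, and the shared genes and relatives lie between 14.0 and 104 CPM per kb.

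Set against their leucine pathway relatives, the chain elongation copies of the synthase, the isomerase small subunit and the dehydrogenase made up a small part of the summed level in both genotypes. *IPMI1* and *IPMI2* together held 5.98%, 7.70% and 5.08% of the CPM per kb of the 3 small subunit genes in the mutant, against 2.86%, 2.48% and 2.95% in wild type. *IMD1* held 6.44%, 7.51% and 5.55% of the 3 *IMD* genes in the mutant, against 3.36%, 3.33% and 2.21% in wild type. *MAM1* and *MAM3* held 7.48%, 12.5% and 8.40% of the MAM and IPMS total in the mutant, against 5.47%, 4.26% and 5.58% in wild type. In each of these families the shares of the genotypes did not overlap. For the aminotransferases only the members *BCAT4* and *BCAT3* were set against each other, and *BCAT4* was at 2.25%, 3.62% and 4.44% of the sum with *BCAT3* in the mutant, and at 0.997%, 1.13% and 1.29% in wild type. These shares are ratios within a sample, so a scaling of whole samples leaves them as they are, but they rest on the same contrast and are a description.

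**Figure D4:**
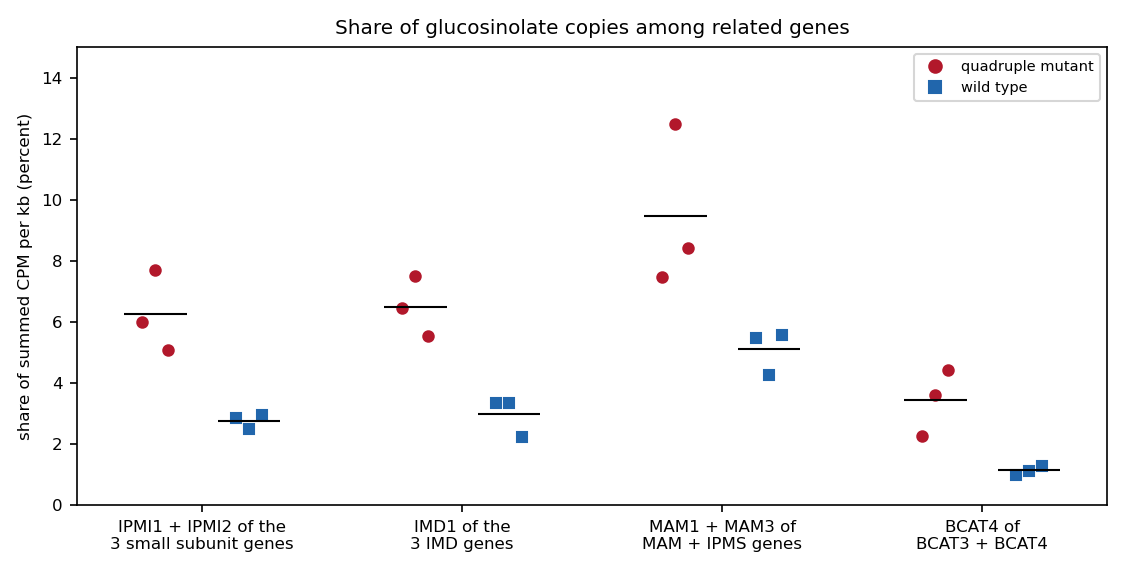
Share of the glucosinolate copies in the summed CPM per kb of the related genes named on the axis, in percent, for each sample of the quadruple mutant (circles) and of wild type (squares); lines are means. Every mutant sample lies above every wild-type sample, for instance at 5.08% to 7.70% against 2.48% to 2.95% for *IPMI1* and *IPMI2*.

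The spread among samples was compared between the genotypes as a description. The coefficient of variation was larger in the mutant in 8 of the 10 members, with *IPMI1* and *IMD1* as the exceptions, and in 44.4% of all tested genes. Its median over the members was 22.5% in the mutant and 9.30% in wild type, against 9.51% in the mutant and 10.6% in wild type over all tested genes. The wild-type value was below the counting error of its reads in 5 members (*BCAT4*, *BAT5*, *MAM3*, *IPMI2* and *BCAT3*) and the mutant value in 0, so the close agreement of wild-type samples in these 5 is not a measure of their biological spread. Mutant replicate 2 was the highest of all 6 samples in 6 members (*MAM1*, *MAM3*, *IPMI2*, *IMD1*, *IMD3* and *BCAT3*), and in 21.0% of all tested genes. In 7 members every mutant sample lay above every wild-type sample, so their highest value had to come from a mutant sample. The shares therefore have unlike bases, and nothing is read from them. Without mutant replicate 2, 0 members were called by limma and the median log2 fold change of the members was 0.77. *IPMI2* then had a log2 fold change of 0.74 and *MAM1* of 0.80. All 10 log2 fold changes stayed above 0 whichever of the 6 samples was removed. With all samples, 52.1% of all tested genes had a positive log2 fold change. The members were listed with this contrast known, and the groups overlapped for *MAM3*, the IPMI large subunit gene and *IMD3*, so these signs are a description.

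The calls changed with the sample left out. Without mutant replicate 1 *BCAT4* was the only member called, and without mutant replicate 3 *IPMI1* was the only member called. Without wild-type replicate 2, *BAT5* and *IMD1* were called. Without wild-type replicate 1 or 3, as without mutant replicate 2, 0 members were called with limma, although 61, 83 and 76 genes were still called over the whole table in these fits. The log2 fold change of *BAT5* stayed between 0.99 and 1.15, that of *IPMI1* between 1.06 and 1.36, and that of *IMD1* between 0.98 and 1.26 over these fits. *IPMI1* lay close to the threshold with all samples and was called under 2 of the 13 alternative settings.

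**Figure D5:**
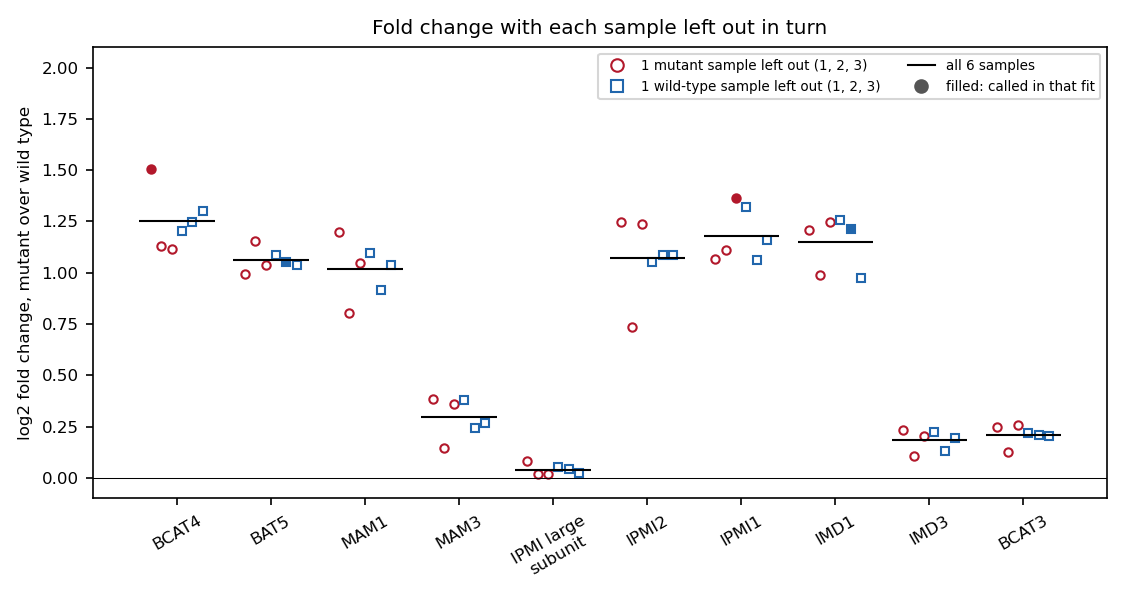
Log2 fold change of each member, quadruple mutant over wild type, with each sample left out in turn (circles, a mutant sample; squares, a wild-type sample; replicates 1 to 3 from left to right) and with all 6 samples (lines); filled symbols mark fits in which the gene was called. All values stay above 0, *IPMI2* and *MAM1* drop to 0.74 and 0.80 without mutant replicate 2, and *BCAT4* is called only without mutant replicate 1.

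The genes next in the pathway were taken from lists written by pathway role, also with earlier results of these data known. Their counts are therefore a description. Over all tested genes, 0.132% were called higher, and 6.92% had every mutant sample above every wild-type sample. Of 15 tested genes of the core pathway and of side chain oxidation, limma called 3 higher and 0 lower in the mutant, with a median log2 fold change of 0.44 and mutant samples above all wild-type samples in 12. The called genes were *CYP79F1*, which converts elongated methionine to aldoximes, *CYP83A1*, which oxidises these further, and *FMO GS-OX3*, which oxidises the side chain, with log2 fold changes of 1.17, 1.20 and 1.36. *CYP79F2*, a relative of *CYP79F1* that uses long-chain substrates, did not pass the filter on low values and had 0.412, 0.173 and 0.302 CPM in the mutant, against 0.460, 0.740 and 0.646 CPM in wild type. Among the regulators, *MYB28*, an activator of aliphatic glucosinolate genes, had 19.0, 17.6 and 12.7 CPM in the mutant, against 12.2, 8.14 and 12.2 CPM in wild type, which is 0.58 on the log2 scale (SE 0.19) and was no call. Its relative *MYB29* did not pass the filter either. It had 0.962, 1.04 and 0.403 CPM in the mutant, against 0.138, 0.123 and 0.269 CPM in wild type, where 2 of the 3 samples were at about 3 reads or fewer. *MYC2*, *MYC3* and *MYC4*, bHLH partners of these MYB factors, had log2 fold changes of 0.26, -0.21 and -0.15. The sulfur response regulator *SLIM1* had -0.07, and none of the 4 was called. In *MYC4* and *SLIM1* every mutant sample lay below every wild-type sample, as in 1577 of the 21287 tested genes. In *MYC2* and *MYC3* the genotypes overlapped. On a list of 7 genes around methionine, which holds enzymes of its synthesis, the competing threonine synthase *MTO2* and the methionine-degrading lyase *MGL*, limma called 0, and 0 had an unadjusted p-value under 0.05. Their median log2 fold change was 0.14.

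Other lists were read to see what moved beside the members. The 5 photosynthesis genes had summed levels of 7447 to 9519 CPM in the mutant and 7958 to 8230 CPM in wild type, and 0 of them were called or had an unadjusted p-value under 0.05. The 5 genes of mature pollen and sperm summed to 2102 to 2493 CPM in the mutant and 1910 to 2564 CPM in wild type, again with 0 called and 0 at an unadjusted p-value under 0.05. For both lists the genotypes overlapped. Of 9 clock genes, limma called 0, and 3 had an unadjusted p-value under 0.05, a limit that 9.31% of all tested genes met. These 3 had opposite signs, with log2 fold changes of -0.24 for *LHY*, -0.25 for *TOC1* and 0.32 for *LUX*, and in each of them the genotypes did not overlap. The median over the list was -0.02. On the jasmonate response list, all 8 genes had positive log2 fold changes with a median of 0.38. *CORI3* and *ORA47* were called at log2 fold changes of 1.06 and 0.70. The genotypes stood apart for 5 of the 8 and overlapped for *JAZ1*, *JAZ10* and *AOS*, at 0.09, 0.18 and 0.08. The summed level was 6409 to 6799 CPM in the mutant and 4523 to 5413 CPM in wild type. Most of it came from *VSP1*, *VSP2* and *LOX2*, with mutant means of 3611, 1326 and 1146 CPM. The sums of the genotypes did not overlap, and the part of this list in the members' values was not tested.

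The 250 bases before each annotated gene start were searched for binding motifs of the mutated factor classes. The G-box CACGTG, a bHLH site that reads the same on both strands, occurred upstream of 1 of the 10 members and of 6.49% of all protein-coding genes. That member was the IPMI large subunit gene, whose groups overlapped. The window around the motif, which begins 38 bases before the gene start, is shown with the motif in capitals (chr4:7808000-7808039, minus strand, intergenic).

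IPMI large subunit upstream: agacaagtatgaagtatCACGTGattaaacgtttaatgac

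The wider E-box CANNTG, which includes the G-box, occurred upstream of 6 members (*BAT5*, *MAM1*, *MAM3*, the IPMI large subunit gene, *IMD3* and *BCAT3*) and of 55.3% of all protein-coding genes. Among the 6 members with log2 fold changes over 1, only *BAT5* and *MAM1* held an E-box in this window. The CArG box of MADS-domain factors occurred upstream of 0 members and of 2.52% of all protein-coding genes. These matches are letters in a window of fixed length and carry no information on binding.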

How the data were processed

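RNA-seq of inflorescences was analysed in 3 samples per genotype. Per the sample labels and the study's methods, the authors mapped the reads to TAIR version 10 with bowtie2 and estimated expression with RSEM (versions not given in the sources used here). They deposited CPM scaled to an effective library size, beside which, per the file headers, stand the log2 ratio, the p-value and the FDR of the authors' own test. These 3 columns were not used. The table had 21801 rows, of which 2 held no gene. Low CPM values were spaced by about 1 read: 93.6% to 94.8% of those under 1 CPM were within 0.1 of a whole read, too few to rebuild counts, so the planned edgeR alternative was not run. The main test was limma 3.58.1 in R 4.3.3 with a mean-variance trend on log2(CPM + 0.5), genotype as the only factor, for genes over 0.5 CPM in at least 3 samples, with Benjamini-Hochberg adjustment. It was tested on simulated data. Sequences and positions came from RefSeq TAIR10.1 (the authors used version 10; their table holds no positions), read with biopython 1.88. All 10 members were matched by locus identifier. Of the listed genes, *AOP2*, *AOP3* and *MYB76* had no values in the deposited table and were therefore not analysed here.

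All members, all leucine pathway relatives, the mutated genes and called genes of the other lists are named. The members and lists were chosen with earlier results of these data known. Regulators and genes that failed the filter were named after their values were seen. Sample titles give the *CES* allele as *ces-4*, while an extraction note writes *ces-2*. Each replicate was a separate plant pool per the study's methods, and depth was 15.9 to 21.2 M reads on the listed genes. Alternatives were other pseudocounts, filters and scalings, the replicate number as a block, each sample left out, and coding in place of transcript length.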

Additional observations from a re-analysis of the deposited data

How the results depend on the processing

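All 10 members kept a positive log2 fold change under all 13 alternatives, and with other pseudocounts, filters or scalings 2 or 3 of them were called. The median over the members was 1.04 with all samples and 0.77 to 1.07 on removal of any sample, with the lowest value without mutant replicate 2. In these fits the number of members called was between 0 and 2, that of core pathway genes between 0 and 4, and that of all genes between 61 and 159, against 3, 3 and 148 with all samples. With the replicate number as a block, 64 genes were called over the whole table (63 of them shared with the fit without it), and 0 members and 0 core genes. Deviations of same-numbered samples from their group means correlated at -0.16 to -0.10. Those of different-numbered samples correlated at -0.16 to 0.25. With 3 samples per genotype the deviations sum to 0 in each gene, so these correlations are not independent of each other. Whether the numbers mark a shared batch was not tested further. The cause of the changes between the fits was not tested. *BCAT4*, not called with all samples, was called without mutant replicate 1 (log2 fold change 1.51). By coding length in place of transcript length, 6 in place of 5 neighbours in the wild-type order were separated, and *MAM1* fell behind *IPMI1* and *IPMI2*. Depth limits *BCAT4* and *MAM3* most, with 10 to 54 and 14 to 30 reads per sample.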
